A study of Mus musculus with 7 samples.

Results

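The genes described here are Hoxc13, Foxn1, Msx1, Msx2, Dlx3, Lef1, Shh, Hr, Sostdc1 and Lhx2, transcription factors and secreted signals of the hair follicle, 10 of the 17045 genes that were tested. They were taken by name: every probe that was no control and carried one of these gene names on the array. All 10 had a probe, and all 10 passed the filter, which asked that a probe be well above its local background in at least 3 of the 14 channels. Shh passed only through samples taken after detergent treatment, so counts and medians over the genes cover the other 9.

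Dorsal skin was taken from male HR-1 mice, a hairless strain, 5 weeks old, kept on AIN-93G diet. The strain's Hr allele is not stated in the labels. In the GC-fed groups the diet held glucosylceramide (GC), that is, ceramide with a glucose attached. The control-fed groups had the same diet without it. After 12 days, with no detergent applied, 3 samples were taken in each diet (before SDS). The skin was then given 10% sodium dodecyl sulfate (SDS), a detergent, for 5 minutes a day on 2 days, and at 14 days of diet 4 samples were taken in each diet (after SDS). The replicates are called biological in the labels, which do not say whether a sample is 1 animal or a pool, so p-values measure the spread between these samples. Each of the 7 arrays held a GC-fed and a control-fed sample in opposite dyes.

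The hair follicle grows in cycles from matrix cells around the dermal papilla. Wnt signals act through beta-catenin and its DNA-binding partner Lef1, Shh from the matrix sustains growth, and BMP signals steer matrix cells into hair shaft and inner root sheath, with Sostdc1 among their secreted inhibitors. Msx2 and Foxn1 act in the differentiating matrix, and Hoxc13, Foxn1 and Lef1 are known to act on hair keratin genes. In hairless strains the coat is shed after the first hair growth and the follicles break up.

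Upstream sequence from RefSeq (build GRCm38.p6) is shown for Msx2 and its paralog Msx1, whose values parted below, and for Lef1, the gene with the steepest step between the sample sets. Each run holds the 250 bases before the annotated start, read 5′ to 3′ on the gene's strand. Msx2 lies on chr13:53472781-53473030, minus strand, Msx1 on chr5:37824586-37824835, minus strand, and Lef1 on chr3:131110047-131110296, plus strand. Capitals mark TAATTA, a core bound by many homeodomain proteins, which reads the same on both strands.
Msx2: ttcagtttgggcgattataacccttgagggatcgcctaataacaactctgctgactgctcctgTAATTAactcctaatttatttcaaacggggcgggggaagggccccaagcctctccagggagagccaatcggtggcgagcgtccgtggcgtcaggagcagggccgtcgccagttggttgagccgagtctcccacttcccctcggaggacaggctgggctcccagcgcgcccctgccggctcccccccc
Msx1: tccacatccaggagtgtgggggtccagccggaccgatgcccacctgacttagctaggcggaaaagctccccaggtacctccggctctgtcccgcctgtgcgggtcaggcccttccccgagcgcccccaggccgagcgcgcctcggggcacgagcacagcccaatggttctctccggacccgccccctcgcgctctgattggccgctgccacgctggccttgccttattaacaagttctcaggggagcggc
Lef1: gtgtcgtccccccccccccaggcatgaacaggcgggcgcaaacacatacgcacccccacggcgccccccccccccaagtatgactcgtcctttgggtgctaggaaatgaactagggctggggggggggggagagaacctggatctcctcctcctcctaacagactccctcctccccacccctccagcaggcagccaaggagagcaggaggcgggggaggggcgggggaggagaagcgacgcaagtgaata
The core occurred 1 time in the Msx2 run, 187 bases before the start, and 0 times in the runs of Msx1 and Lef1. In RefSeq windows of the same length, 4.84% of 32851 held it. The core CTTTGA of Lef1 and its relatives, searched on both strands, was in none of the 3 runs, against 13.8% of all windows.

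Each array had 43379 spots that were no controls, of which 48.5% to 54.5% passed as well above background in green and 58.2% to 62.8% in red. The number of arrays limits the precision. The epidermal keratins Krt1, Krt5 and Krt10 were bright in all 14 samples, with log2 intensities of at least 14.83, 16.50 and 14.96. The probes of Krt14 and Lor were not kept for testing. A kept probe needed a value on every array and enough channels well above background, and which of these failed was not recorded. The 3 arrays before SDS shared 1 slide and scan and the 4 arrays after SDS another, so SDS, slide and the added days of diet and age cannot be told apart. Across genes, which are no replicates of each other, the diet ratios of after-SDS array 4 ran against arrays 1, 2 and 3 (r = -0.58, -0.62 and -0.30), and before-SDS array 1 ran against arrays 2 and 3 (r = -0.39 and -0.17). Taken as red over green, whatever the diet, array 4 ran with after-SDS arrays 1 and 2 (r = 0.58 and 0.62) and against array 3, and the before-SDS arrays ran with each other (r between 0.17 and 0.39). The ratio fit in limma held a dye term, which passed for 0 genes at an adjusted p under 0.05, with 4 residual degrees of freedom. The part of the dyes in the diet ratios was not tested further. The dyes are stated in the labels, so the direction was kept on every array.

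The first comparison set skin after SDS against skin before SDS within each diet. Lef1, Msx2, Hoxc13 and Foxn1 were higher after SDS in both diets, by 1.58-fold to 3.17-fold, and Msx1 was higher in control-fed skin by 1.29-fold. Dlx3, Lhx2, Hr and Sostdc1 did not pass in either diet. In limma's separate-channel fit, 5 of the 9 genes passed in control-fed skin and 4 of 9 in GC-fed skin at an adjusted p under 0.05, all higher after SDS, where 7.67% and 6.10% of all genes tested passed in that direction. The samples after SDS were all above those before SDS for 5 of 9 genes in control-fed skin and 7 of 9 in GC-fed skin, against 16.3% and 11.3% of all genes. The median difference over the 9 genes was 0.36 in control-fed and 0.67 in GC-fed skin (log2), beside 0.00 over all genes in both. In bulk skin, a change in the number of cells of a type and a change in RNA per cell cannot be told apart.

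**Figure D1:**
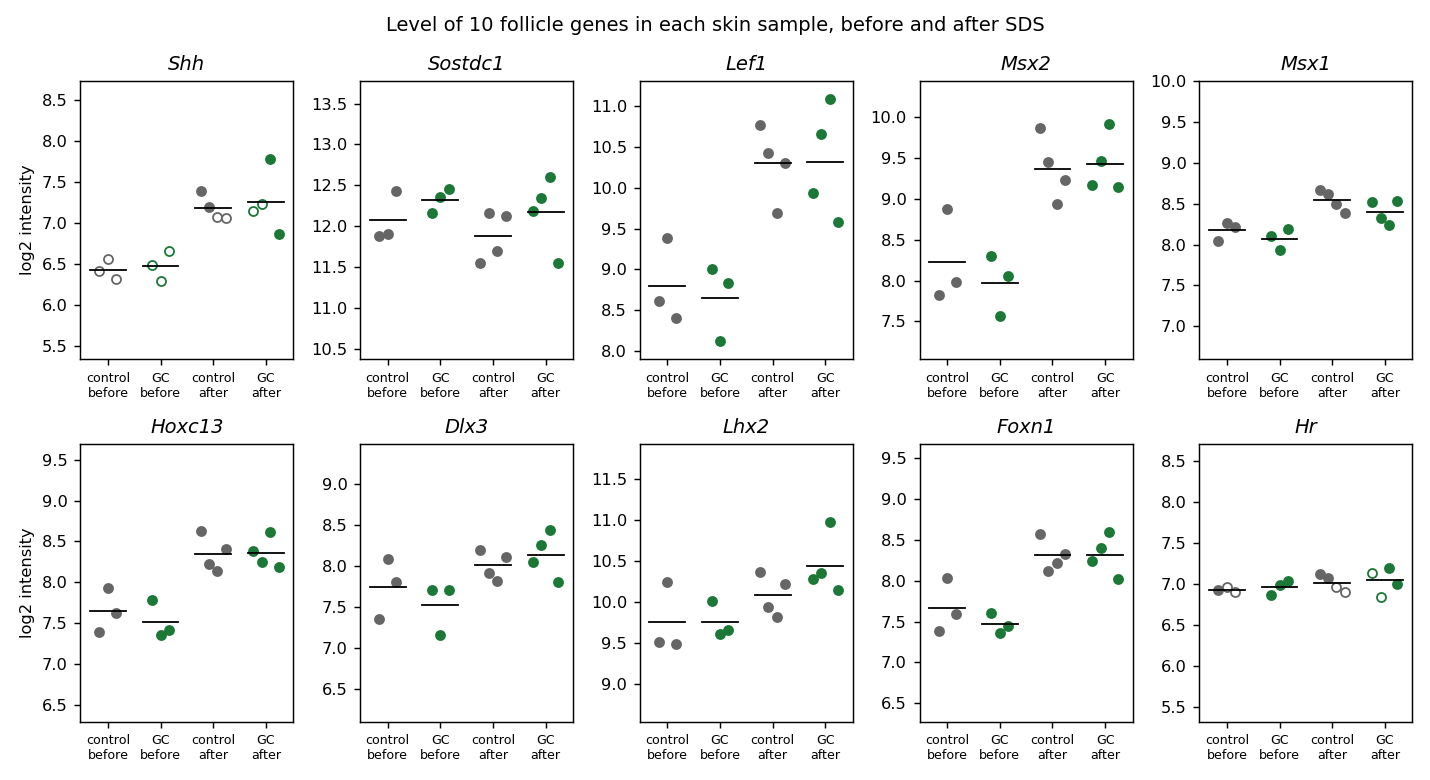
Log2 intensity (y axis) of the 10 genes in each skin sample, in the 4 groups of diet and SDS; grey points are control-fed, green points GC-fed, lines are group means, and open points were not well above background in that sample. Every panel spans the same number of log2 units. Lef1, Msx2 and Hoxc13 stand higher in all samples after SDS than in all samples before it, Foxn1 does so only within each diet (8.02 in GC-fed sample 4 after SDS against 8.03 in control-fed sample 2 before it), and Hr and Sostdc1 overlap.

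Of the signals, Shh is the ligand that matrix cells release. Its probe gave 6.41, 6.56 and 6.31 in control-fed and 6.48, 6.29 and 6.66 in GC-fed skin before SDS (log2 intensity, arrays 1 to 3), none of them well above background. After SDS it gave 7.39, 7.20, 7.07 and 7.06 in control-fed and 7.14, 7.23, 7.78 and 6.86 in GC-fed skin (arrays 1 to 4), of which 2 samples in each diet were well above background, all 4 of them in the red channel. The samples after SDS were all above those before it, but a level was measured only in those 4. The group means were 6.43 before and 7.18 after SDS in control-fed skin (adjusted p = 0.0173) and 6.48 and 7.25 in GC-fed skin (adjusted p = 0.0175). No fold is given, since green-channel values of up to 7.23 were not well above background and the means after SDS include them. It entered the test only because these samples were bright, so the calls add nothing to the count above.

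Sostdc1, a secreted inhibitor of BMP and Wnt signals, gave 11.88, 11.91 and 12.43 in control-fed and 12.16, 12.36 and 12.45 in GC-fed skin before SDS. After SDS it gave 11.55, 12.16, 11.70 and 12.12 in control-fed and 12.19, 12.35, 12.60 and 11.55 in GC-fed skin. All 4 groups overlapped. The difference was -0.18 (SE 0.24, 95% interval -0.69 to 0.33, adjusted p = 0.629) in control-fed and -0.17 (SE 0.24, 95% interval -0.68 to 0.34, adjusted p = 0.68) in GC-fed skin.

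Lef1 had the largest difference of the 10 genes in both diets. Its levels before SDS were 8.61, 9.38 and 8.41 in control-fed and 9.0, 8.12 and 8.84 in GC-fed skin. After SDS they were 10.77, 10.43, 9.69 and 10.30 in control-fed and 9.93, 10.66, 11.09 and 9.58 in GC-fed skin. The lowest sample after SDS, at 9.58, lay above the highest before it, at 9.38. Lef1 rose 2.82-fold in control-fed skin (log2 1.50, SE 0.39, adjusted p = 0.023) and 3.17-fold in GC-fed skin (log2 1.66, SE 0.39, adjusted p = 0.0202). Of its 3 probes, the 1 used was the brightest. A further probe that was well above background in all 14 channels differed in the same direction, by 0.96 and 1.31 between group means, and the third was above background in 0 channels.

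Among the homeobox genes, Msx2, which acts in the hair matrix, followed Lef1. Its levels before SDS were 7.82, 8.88 and 7.98 in control-fed and 8.30, 7.57 and 8.05 in GC-fed skin. After SDS they were 9.86, 9.45, 8.93 and 9.23 in control-fed and 9.17, 9.46, 9.91 and 9.14 in GC-fed skin. Control-fed sample 2 stood above the other samples taken before SDS, and reached within 0.05 of the lowest control-fed sample after it. Msx2 rose 2.2-fold in control-fed skin (log2 1.14, SE 0.30, adjusted p = 0.025) and 2.73-fold in GC-fed skin (log2 1.45, SE 0.30, adjusted p = 0.0137).

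Msx1, its paralog, moved less. Its levels before SDS were 8.04, 8.26 and 8.22 in control-fed and 8.10, 7.93 and 8.19 in GC-fed skin. After SDS they were 8.67, 8.62, 8.49 and 8.39 in control-fed and 8.52, 8.32, 8.24 and 8.53 in GC-fed skin. The groups did not overlap within either diet, yet the gap was 0.13 in control-fed and 0.05 in GC-fed skin. Msx1 rose 1.29-fold in control-fed skin (log2 0.36, SE 0.11, adjusted p = 0.0382) and had a difference of 0.33 (SE 0.11, adjusted p = 0.0664) in GC-fed skin. The difference between the paralogs was not tested, and a further Msx1 probe was above background in 0 of 14 channels.

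Hoxc13, an activator of hair keratin genes, gave 7.39, 7.93 and 7.63 in control-fed and 7.78, 7.36 and 7.42 in GC-fed skin before SDS. After SDS it gave 8.63, 8.22, 8.14 and 8.41 in control-fed and 8.38, 8.25, 8.61 and 8.19 in GC-fed skin. The 8 samples after SDS lay between 8.14 and 8.63, and none of the 6 before SDS passed 7.93. Hoxc13 rose by 0.71 (SE 0.16, adjusted p = 0.0141) in control-fed and by 0.82 (SE 0.16, adjusted p = 0.012) in GC-fed skin.

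Dlx3, needed for the hair shaft and inner root sheath, gave 7.35, 8.08 and 7.81 in control-fed and 7.71, 7.15 and 7.70 in GC-fed skin before SDS. After SDS it gave 8.19, 7.91, 7.82 and 8.11 in control-fed and 8.05, 8.26, 8.44 and 7.80 in GC-fed skin. The control-fed groups overlapped and the GC-fed groups did not. The difference was 0.29 (SE 0.19, 95% interval -0.13 to 0.71, adjusted p = 0.318) in control-fed and 0.59 (SE 0.19, 95% interval 0.17 to 1.02, adjusted p = 0.0663) in GC-fed skin.

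Lhx2, known for its part in follicle stem cells, gave 9.51, 10.25 and 9.49 in control-fed and 10.01, 9.61 and 9.66 in GC-fed skin before SDS. After SDS it gave 10.37, 9.94, 9.82 and 10.22 in control-fed and 10.28, 10.35, 10.98 and 10.14 in GC-fed skin. Control-fed sample 2 before SDS, at 10.25, lay within the control-fed range after SDS. Within a diet, only the GC-fed groups stood apart. The difference was 0.34 (SE 0.23, 95% interval -0.17 to 0.85, adjusted p = 0.324) in control-fed and 0.67 (SE 0.23, 95% interval 0.16 to 1.18, adjusted p = 0.0798) in GC-fed skin.

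Foxn1, the gene altered in nude mice, gave 7.39, 8.03 and 7.59 in control-fed and 7.60, 7.36 and 7.44 in GC-fed skin before SDS. After SDS it gave 8.57, 8.12, 8.22 and 8.33 in control-fed and 8.24, 8.40, 8.59 and 8.02 in GC-fed skin. The groups did not overlap within either diet. Foxn1 rose by 0.66 (SE 0.17, adjusted p = 0.0208) in control-fed and by 0.83 (SE 0.17, adjusted p = 0.0124) in GC-fed skin.

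Hr, a corepressor of nuclear receptors and the gene for which hairless mice are named, was close to the limit of measurement. It was well above background in 8 of 14 channels, 7 of them red and 1 green. Its level lay between 6.86 and 7.04 in the 6 samples before SDS and between 6.84 and 7.19 in the 8 samples after it, and all groups overlapped. The difference was 0.06 (SE 0.08, 95% interval -0.12 to 0.24, adjusted p = 0.635) in control-fed and 0.10 (SE 0.08, 95% interval -0.08 to 0.28, adjusted p = 0.473) in GC-fed skin.

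**Figure D2:**
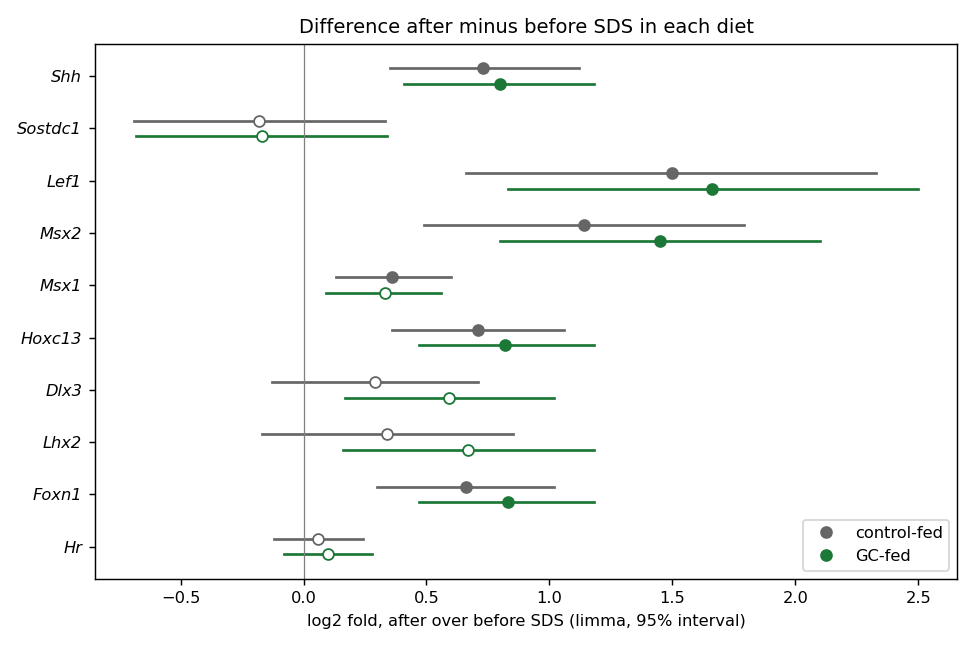
Log2 fold after over before SDS (x axis) for each gene, in control-fed (grey) and GC-fed skin (green), from limma's separate-channel fit; bars are 95% intervals and filled points passed at an adjusted p under 0.05. Shh had no sample well above background before SDS, so its points are no measured fold. Lef1 and Msx2 lie farthest to the right, and the intervals of Hr and Sostdc1 span 0 in both diets.

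By the order of group means, GC-fed skin before SDS was lowest for Hoxc13, Foxn1, Msx1, Msx2, Dlx3 and Lef1, control-fed skin before SDS for Shh, Hr and Lhx2, and control-fed skin after SDS for Sostdc1. GC-fed skin after SDS was highest except for Msx1, with control-fed skin after SDS highest, and Sostdc1, with GC-fed skin before SDS highest. For Hoxc13, Foxn1, Msx2 and Lef1 the only neighbours in this order that did not overlap were the higher group before SDS and the lower group after it. The same held for Shh, but it was kept only through samples after SDS, so its place and its gap are no result. For Msx1, Dlx3, Hr, Sostdc1 and Lhx2 all neighbours overlapped. How many of all genes had such orders was not counted.

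With so few arrays, these calls turned on single arrays. Without before-SDS array 1 or array 3, 0 of the 9 genes passed in control-fed skin, and 2 passed without after-SDS array 1 or 2 (Hoxc13 and Foxn1 each time). In GC-fed skin 0 passed without before-SDS array 2 or 3 and 1 (Hoxc13) without after-SDS array 3. In every fit without 1 array, 8 or 9 of the 9 genes were above 0 in either diet. With no normalization between arrays, where the median of all genes lay at -0.25, 0 and 2 of the 9 passed and 7 of 9 were above 0 in each diet.

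Hair shaft genes, several of them known targets of these factors, stood higher too. Of 23 hair shaft and inner root sheath genes measured, 11 rose and 0 fell in control-fed skin, and 16 rose and 0 fell in GC-fed skin. The median was 1.15 and 1.61. Of all genes, 7.67% and 6.10% rose and 8.44% and 5.88% fell. Krt35, a hair cortex keratin, rose by 2.00 (SE 0.41, adjusted p = 0.00924) and 2.17 (SE 0.41, adjusted p = 0.0108). The hair keratins Krt36 and Krt85 rose by 1.15 and 1.50 in control-fed and by 1.26 and 1.66 in GC-fed skin. The list's mean level ran from 10.60 to 12.42 in control-fed samples before SDS and from 12.08 to 13.10 after it, so those groups overlapped; in GC-fed samples it ran from 10.55 to 11.52 and from 12.33 to 12.96.

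The counts in the surrounding pathways stand beside 7.67% and 6.10% of all genes that rose and 8.44% and 5.88% that fell, in control-fed and GC-fed skin. Of 10 other Shh pathway genes measured, 1 rose in control-fed skin and 0 passed in GC-fed skin, with a median of 0.04 in both. The ligand gene Dhh rose by 0.54 (SE 0.16, adjusted p = 0.0394) in control-fed skin and had a difference of 0.35 (SE 0.16, adjusted p = 0.168) in GC-fed skin. The targets Ptch1, Gli1 and Hhip, by which Shh activity is usually read, had probes that were not kept for testing. The Shh coreceptor genes Gas1 and Boc had differences of -0.38 (adjusted p = 0.0585) and -0.25 (adjusted p = 0.0758) in control-fed skin and -0.25 (adjusted p = 0.213) and -0.30 (adjusted p = 0.0526) in GC-fed skin.

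Of 33 other Wnt pathway genes, 2 rose and 4 fell in control-fed skin, and 3 rose and 2 fell in GC-fed skin, with a median of 0.06 and 0.13. Ctnnb1, which encodes beta-catenin, fell by 0.76 (SE 0.10, adjusted p = 0.00233) in control-fed and by 0.67 (SE 0.10, adjusted p = 0.0054) in GC-fed skin, opposite to Lef1. Axin2, a target gene of the pathway, fell by 0.63 (SE 0.14, adjusted p = 0.0132) in control-fed skin, as did the receptor gene Lrp4, by 0.63 (SE 0.14, adjusted p = 0.0117). In GC-fed skin the secreted inhibitor Wif1 rose by 0.95 (SE 0.24, adjusted p = 0.0282) and the transcription factor Tcf7l1 by 0.53 (SE 0.14, adjusted p = 0.0308). In the other diet the group means of these genes went the same way. They went from 8.01 to 7.55 for Axin2 and from 10.03 to 9.65 for Lrp4 in GC-fed skin. In control-fed skin they went from 8.13 to 8.88 for Wif1 and from 11.22 to 11.57 for Tcf7l1.

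Of 19 other BMP pathway genes, 0 rose and 2 fell in control-fed skin, the ligand gene Bmp7 by 0.41 (SE 0.09, adjusted p = 0.0093) and the inhibitor Grem1 by 0.75 (SE 0.21, adjusted p = 0.0321). In GC-fed skin 1 rose and 3 fell. The inhibitory Smad6 rose by 0.55 (SE 0.16, adjusted p = 0.0398), the target gene Id3 fell by 0.46 (SE 0.11, adjusted p = 0.0215) and the ligand gene Bmp4 by 0.34 (SE 0.10, adjusted p = 0.0391). The median was 0.01 and 0.06.

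Of 28 other transcription factors of the follicle, 1 rose and 1 fell in control-fed skin, namely Trps1, which rose by 0.45 (SE 0.13, adjusted p = 0.0332), and Klf5, which fell by 0.50 (SE 0.15, adjusted p = 0.0376). In GC-fed skin 5 rose and 0 fell, among them Foxe1 (0.62, SE 0.14, adjusted p = 0.0189), Foxq1 (0.50, SE 0.13, adjusted p = 0.0281) and Dlx2 (0.95, SE 0.27, adjusted p = 0.0402). In the other diet the group means of these genes went the same way. They went from 10.36 to 10.80 for Trps1 and from 11.13 to 10.78 for Klf5 in GC-fed skin. In control-fed skin they went from 7.70 to 8.08 for Foxe1, from 9.43 to 9.68 for Foxq1 and from 7.56 to 8.22 for Dlx2. The median over the list was 0.02 and 0.15.

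Markers of several cell types moved with the same comparison. Their counts stand beside 7.67% and 6.10% of all genes that rose and 8.44% and 5.88% that fell, in control-fed and GC-fed skin. In lists this short a single call does not set a list apart. Of 7 basal epidermis markers 5 fell in control-fed and 2 in GC-fed skin (median -0.55 and -0.43), their mean level running from 13.34 to 13.53 before and from 12.58 to 13.19 after SDS. Of 8 dermal papilla markers 3 and 2 rose (median 0.45 and 0.32, mean level 7.73 to 7.92 before and 8.03 to 8.43 after SDS), with Sox2 and Rspo3 not kept for testing. Of 9 melanocyte markers 4 rose in each diet (median 0.60 and 0.69, mean level 8.51 to 9.06 before and 9.20 to 9.84 after SDS), with Tyr not kept for testing. The difference was above 0 for 6 of these 9 in control-fed and 7 in GC-fed skin. The group means of Mitf and Sox10 were lower after SDS in both diets. Of 12 cell cycle genes 6 and 9 rose (median 0.37 and 0.59, mean level 9.18 to 9.49 before and 9.62 to 10.27 after SDS). In control-fed skin 3 of 9 adipocyte and 2 of 10 skeletal muscle markers rose and 2 of 12 suprabasal epidermis markers fell, with 0 markers of these 3 lists called in GC-fed skin; 2 and 1 of 9 sebaceous gland markers fell, 1 and 0 of 7 outer root sheath and companion layer markers rose, and 0 of 8 dermal fibroblast and 0 of 9 macrophage markers passed. The part of these lists in the rise of the follicle genes was not tested.

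The second comparison asked how GC in the diet bore on the genes, before and after SDS. None of the 10 genes passed, in either set or in the difference between them, and 0 of 17045 genes passed at all (0% of the genes tested; lowest adjusted p of 1 before SDS, 0.477 after SDS and 1 for the difference, with 101, 1025 and 284 genes at an unadjusted p under 0.05, 0 of the 9 follicle genes among them). Before SDS the mean ratio was between -0.25 for Msx2 and 0.25 for Sostdc1. After SDS it was between -0.14 for Msx1 and 0.35 for Lhx2. Ratios are log2, GC-fed over control-fed.

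What the ratios showed was a spread between arrays in which most of the genes took part. Lef1 had ratios of 0.39, -1.26 and 0.43 on arrays 1 to 3 before SDS and -0.84, 0.23, 1.40 and -0.73 on arrays 1 to 4 after it. Msx2 had 0.48, -1.31 and 0.06, then -0.68, 0.01, 0.98 and -0.09. Both were lowest on before-SDS array 2 and highest on after-SDS array 3.

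Dlx3 had ratios of 0.36, -0.93 and -0.11, then -0.14, 0.35, 0.63 and -0.31. Lhx2 had 0.49, -0.64 and 0.17, then -0.10, 0.41, 1.15 and -0.07. Hoxc13 had 0.39, -0.57 and -0.22, then -0.25, 0.03, 0.48 and -0.21. These 3, too, had their extremes on those 2 arrays. Foxn1 had 0.21, -0.67 and -0.15, then -0.33, 0.28, 0.37 and -0.31, and Shh, dim as it was, had 0.07, -0.27 and 0.34, then -0.25, 0.03, 0.71 and -0.20.

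The other 3 genes did not share this order. Msx1 stayed between -0.33 and 0.14, with 0.06, -0.33 and -0.03 before and -0.15, -0.30, -0.25 and 0.14 after SDS. Hr, well above background in green on 1 of 7 arrays, stayed between -0.23 and 0.23. Sostdc1 was higher in GC-fed skin on 6 of 7 arrays, with 0.28, 0.45 and 0.02 before and 0.64, 0.19, 0.90 and -0.57 after SDS, the last of these on the array that ran against the others over all genes.

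**Figure D3:**
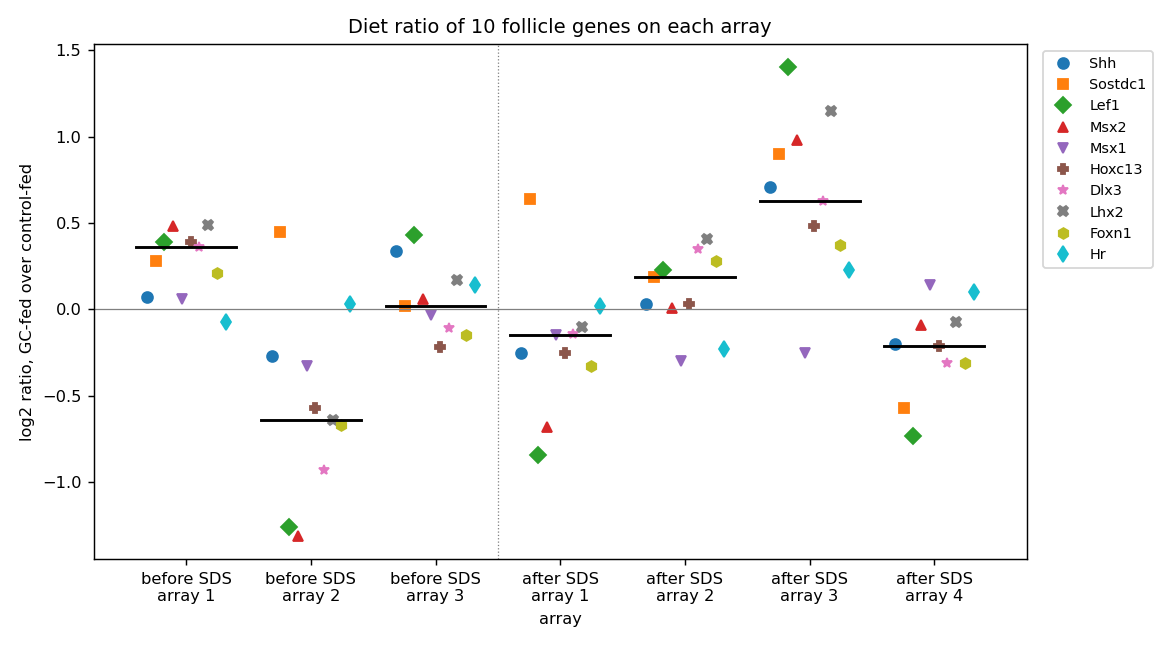
Diet ratio, GC-fed over control-fed skin on a log2 scale (y axis), for the 10 genes on each array (x axis); black lines are the median of the 9 genes other than Shh. The median runs from -0.64 on before-SDS array 2 to 0.63 on after-SDS array 3, and Lef1 lies at -1.26 and 1.40 on these arrays.

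In limma's fit to the ratios, the diet difference of Lef1 was -0.15 (SE 0.51, 95% interval -1.35 to 1.04, adjusted p = 1) before SDS and 0.01 (SE 0.43, 95% interval -1.0 to 1.03, adjusted p = 0.992) after it. For Msx2 it was -0.26 (SE 0.40, 95% interval -1.21 to 0.69) and 0.05 (SE 0.34, 95% interval -0.75 to 0.86). The interval of Lef1 before SDS holds changes of 2-fold in either direction. Msx1 was held more closely, with an interval of -0.39 to 0.11 after SDS. The interval of Hr was -0.15 to 0.21, but after SDS its probe was well above background in 0 green channels. Each of its ratios there had 1 side that was not measured, so the narrow interval does not bound a diet effect.

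The difference between the diet effects after and before SDS, which is also the difference between the SDS effects in the 2 diets, ran from -0.04 (SE 0.16) for Msx1 to 0.33 (SE 0.39) for Lhx2, each with an adjusted p of 1. So Dlx3, Lhx2 and Msx1, whose SDS differences had unlike values or calls in the 2 diets, were not shown to respond differently by diet. Nor were the pathway genes called above in 1 diet only, since 0 of 17045 genes passed for that difference. For Dlx3 the interval of that difference was -0.49 to 1.10.

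Sostdc1 had a diet difference of 0.28 (SE 0.26, adjusted p = 1) before SDS and 0.29 (SE 0.22, adjusted p = 0.749) after it. Without after-SDS array 4, it was 0.61 (SE 0.14, adjusted p = 0.0449), the only 1 of the 9 genes that passed, in a fit where 1529 genes did. With the sign of that array turned it was 0.58 (SE 0.12, adjusted p = 0.0149), with 2218 genes. Without after-SDS array 3 it was -0.00 (SE 0.19, adjusted p = 1). In the authors' deposited table its ratio was 0.69, 0.22, 0.93 and -0.62 on the 4 arrays, with the same array opposite.

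Over the 9 genes the median diet difference was -0.10 before and 0.03 after SDS, beside 0.00 over all genes after SDS. Without before-SDS array 2, 9 of 9 genes lay above 0 before SDS and the median was 0.12; without before-SDS array 1, 1 of 9 did and the median was -0.44. Without after-SDS array 3, 0 of 9 lay above 0 after SDS and the median was -0.14. Over these 9 genes the direction therefore changed with 1 array left out.

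How alike the genes ran can be given as a correlation over the 7 arrays, a description without a test, since genes on an array share the same samples. Among Hoxc13, Foxn1, Msx2, Dlx3, Lef1 and Lhx2, grouped after the values were seen, the 15 pairs had Pearson r between 0.86 and 0.98 and Spearman rho between 0.79 and 0.96. Shh ran with these 6 at r between 0.70 and 0.95. Msx1 had r between -0.01 and 0.29 with them, Hr between -0.16 and 0.22, and Sostdc1 between 0.09 and 0.35. Without before-SDS array 2 and after-SDS array 3, the arrays farthest from the median, the 15 pairs had r between 0.58 and 0.97. Of all genes, 1.99% had r of at least 0.8 with Lef1 and 2.36% with Lhx2, and both reached that with each of the others in this group of 6. Both also reached it with Shh, whose probe was well above background in 0 green channels. Msx1, Hr and Sostdc1 reached it with 0 of the follicle genes, against 1.62%, 3.43% and 2.64% of all genes.

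The hair shaft and inner root sheath genes swung the same way as the follicle genes except on before-SDS array 3. They swung farther on before-SDS arrays 1 and 2 and after-SDS arrays 1 and 3, and less far on after-SDS arrays 2 and 4. Their median ratio was 0.96, -1.91 and -0.30 before and -0.69, 0.08, 0.94 and -0.07 after SDS, where that of the 9 follicle genes was 0.36, -0.64 and 0.02, then -0.15, 0.19, 0.63 and -0.21. Over the 7 arrays the 2 medians had r = 0.94 and rho = 0.86, and r = 0.81 without the 2 arrays named above. The same r was 0.87 for the Wnt list, 0.83 for the BMP list, 0.78 for the other transcription factors, 0.74 for melanocyte markers and 0.70 for cell cycle genes, but 0.27 for dermal papilla, 0.24 for basal and 0.10 for suprabasal epidermis markers, and -0.74 for adipocyte, -0.58 for macrophage and -0.46 for skeletal muscle markers. Without those 2 arrays it was 0.96 for the Wnt and 0.77 for the BMP list, but 0.44 for the other transcription factors, 0.30 for cell cycle genes and -0.15 for macrophage markers. The sign changed for adipocyte (0.28), skeletal muscle (0.08) and basal epidermis markers (-0.12). It also changed for sebaceous gland (from -0.08 to 0.38) and for companion layer and outer root sheath markers (from 0.13 to -0.05). For the Shh list r was 0.54 over 7 arrays and 0.30 without those 2. An r does not show the size of a swing. The median ratio ran only from -0.05 to 0.30 for the Wnt list and from -0.01 to 0.16 for the BMP list. The part of these lists in the swing was not tested.

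**Figure D4:**
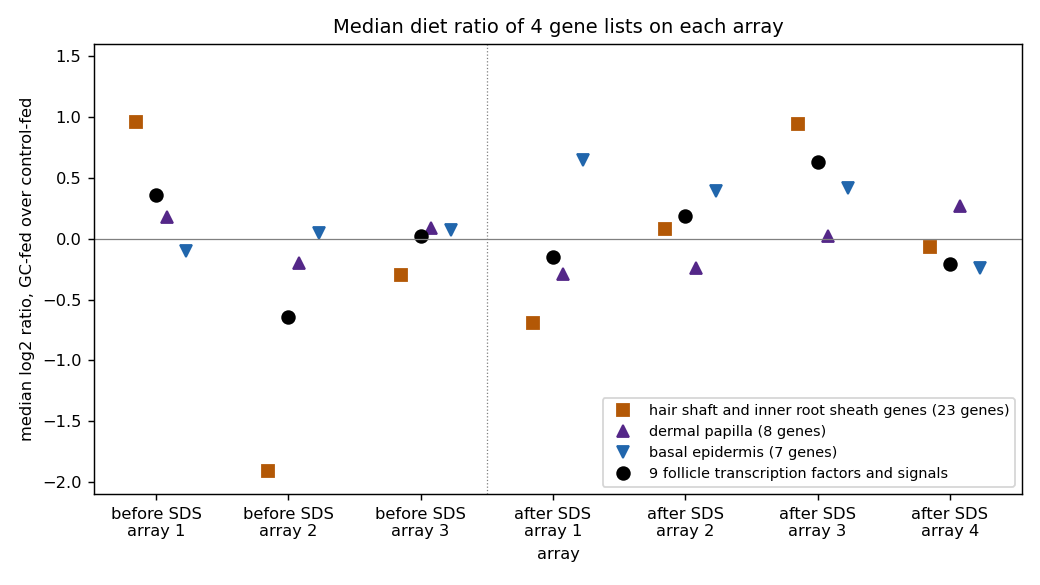
Median diet ratio, GC-fed over control-fed skin on a log2 scale (y axis), on each array (x axis) for the 9 follicle transcription factors and signals (black circles), 23 hair shaft and inner root sheath genes (squares), 8 dermal papilla markers (upward triangles) and 7 basal epidermis markers (downward triangles). On before-SDS array 2 the hair shaft list fell to -1.91 and the follicle genes to -0.64, while basal epidermis markers stood at 0.05.

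Of 4025 other genes with an ordinary symbol whose ratio had an SD of at least 0.3 over the arrays, those most like the median of the 9 were Otop2 (r = 0.990), Bcr (0.988), the Wnt inhibitor Wif1 (0.986), the hair keratin-associated protein gene Krtap5-2 (0.984) and Ccin (0.982), over 7 arrays. For single genes the closest were Lap3 for Hoxc13 (r = 0.986), Fads2 for Foxn1 (0.985), S100a7a for Msx2 (0.996), Krt8 for Dlx3 (0.980), Clec11a for Lef1 (0.978) and Trpv6 for Lhx2 (0.986). Shh was closest to Mycn (0.991), Msx1 to the actin-binding protein gene Flna (0.976), Hr to Cdca7l (0.948) and Sostdc1 to Acoxl (0.985). In green, Shh was well above background on 0 of 7 arrays and Hr on 1. The r values of these 2 genes therefore rest on ratios that mostly had a side not measured. Each is the highest of 4025 correlations over 7 arrays.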

How the data were processed

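The scanner files hold spot intensity in a green and a red channel, read by Agilent Feature Extraction, version 9.1.3.1, per the file headers. The deposited gene-level table holds intensity, with no value under 200, and a log2 ratio; it served as an alternative. The members and gene lists were chosen with earlier results of these data known.

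Mean signals were corrected by normexp (offset 50) in limma 3.58.1 and each array was normalized by loess. Spots flagged for an uneven local background were left out first, a choice made after seeing the data: on 3 arrays such spots, with net signals down to -64151, lifted the fitted floor. Together with other flagged spots, 4 to 100 per array were left out; none was saturated. Of 41174 probes, 22951 were named by accession, 6659 by current and 3109 by older symbol. Kept were 25033 probes measured on all arrays and well above background in at least 3 of 14 channels; the brightest stood for a gene.

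Diet effects came from lmFit and eBayes on log2 ratios with a dye term; after-minus-before SDS differences came from the separate-channel fit after Aquantile normalization (spot correlation 0.055). Residual degrees of freedom were 4 and 9. Benjamini-Hochberg adjustment covered all 17045 genes. Named genes were the 10 members, up to 3 genes of each pathway list by smallest p, and the genes with the most similar ratios. Fits were tested on simulated data. Same-numbered arrays did not pair: the correlation of their deviations ran from -0.18 to 0.29.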

Additional observations from a re-analysis of the deposited data

How the results depend on the processing

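Settings were changed 1 at a time, and the number of arrays limits the precision, since leaving out 1 array removed many calls. Without 1 array, the after-SDS minus before-SDS difference gave 53 to 3690 genes called in control-fed skin (0 to 5 of the 9 follicle genes, median 0.25 to 0.59) and 115 to 2284 in GC-fed skin (0 to 4, median 0.42 to 0.90); for Sostdc1 in GC-fed skin it ran from -0.38 to 0.09. The diet effect after SDS gave 0 to 1529 genes called (0 to 1 of 9), and its difference from that before SDS 0 to 170. In control-fed skin the unfiltered probes gave 3 of the 9 genes. Processed signals without loess gave a median of 0.57 in control-fed and 1.07 in GC-fed skin, with 1335 genes called in the latter. With no normalization between arrays, all genes shifted by -0.25; it gave 5181 and 4851 genes called, 0 and 2 of the 9, a median of 0.08 and 0.35 (0.33 and 0.60 above the shift), and Hr at -0.08 and -0.05. Turning the sign of before-SDS array 1 gave 1 gene called before SDS and 1 for the difference; turning that of after-SDS array 4 gave 2218 genes (1 of the 9) after SDS and 280 for the difference. With the replicate number as a block, 44 genes were called for diet after SDS, 102 for the difference and 1167 for SDS in GC-fed skin. Fitting normexp on all spots, the alternative added after seeing the data, left Msx1 (0.29, adjusted p = 0.0666) and Shh (adjusted p = 0.0643) uncalled in control-fed skin; the cause of these changes was not tested. The slide could not be fitted as a block, since each slide held 1 set of arrays.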
